A study of Mus musculus with 6 samples.

Results

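The genes described here are the potassium channel genes of the renal cortex, taken as every gene symbol that begins with Kcn other than Kcnj1. They numbered 65 of the 19176 rows measured. The symbols cover pore-forming subunits, auxiliary subunits and 1 non-coding RNA. Kcnj10, Kcnj15, Kcnj16 and the 8 Kcnk genes, 11 in all, are kept apart from the other 54 and called tubular for short. The name is a label for the set, and whether each of the 11 is a gene of tubular cells was not tested. The other 54 also hold subunits known in the tubule, such as Kcnq1, Kcne1 and Kcnma1. All 65 were tested without a filter on low values, and 64 had a value of at least 1 in every library.

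Potassium channels set the membrane voltage of tubular cells. On the basolateral side they return to the blood the potassium that Na,K-ATPase carries into the cell, which keeps the pump and the sodium-coupled uptake of solutes running. Inward rectifiers (Kcnj) carry most of this current along the nephron, Kcnj16 forming channels together with Kcnj15 in the proximal tubule and with Kcnj10 in the distal convoluted tubule. Two-pore channels (Kcnk) carry background currents, and Kcnk5 is known for its link to bicarbonate reabsorption in the proximal tubule.

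Renal cortex, a mixture of tubular and interstitial cells, was sequenced from wild-type male C57BL/6J mice aged 8 weeks. All had undergone unilateral ischemia-reperfusion injury (UIRI) by clamping of the left renal pedicle, and the uninjured kidney was removed shortly before tissue was taken on day 14. The UIRI group (3 libraries) received vehicle, ethanol in saline, and the UIRI + BA group (3 libraries) received Bruceine A (BA, written Brucine A in the labels) at 1 mg/kg, both intraperitoneally each day for 14 days. Kidneys without injury were not analysed here, so the values compare injured kidneys with and without BA. Reads on genes numbered, in order of replicate, 18683621, 18684293 and 38124164 with vehicle against 16510720, 19725912 and 20313529 with BA, and values below keep this order. Values are normalized counts, that is, reads on a gene divided by a size factor of the library. Of the marker lists, 12 of 12 proximal tubule, 5 of 5 podocyte, 6 of 6 thick limb and 7 of 7 principal cell markers were measured. Presence alone does not tell cortex from whole kidney.

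Per kilobase of exon, 4 tubular channels stood above the rest in both groups. Kcnj16 was highest at a mean of 1605 normalized counts per kilobase over the 6 libraries, followed by Kcnj15 at 713, Kcnk1 at 681 and Kcnk5 at 438. The order of Kcnj15 and Kcnk1 differed by group: in UIRI the mean of Kcnk1 was higher (713 against 601) with overlapping libraries, and with BA every Kcnj15 library was above every Kcnk1 library. Kcnt2, a sodium-activated channel subunit, came next at 129 per kilobase, then Kcns3, a silent subunit that modifies Kcnb channels, at 114, Kcnj10 at 101.2 and Kcnq1 at 99.4. The 3 tubular inward rectifiers made up 48.7% of the summed level per kilobase of the 65 genes, and the 8 two-pore channels made up 26.0%. The 24 voltage-gated pore subunits together held 10.6%. In the remaining subfamilies the most abundant genes were Kcnj8 among the other inward rectifiers (64.4 per kilobase) and Kcnip3, a calcium-binding regulator, among the auxiliary subunits (59.2 per kilobase). The non-coding Kcnq1ot1 stood at 3.49 per kilobase of a very long exon. Without regard to length, 36 of the 65 genes had a mean normalized count below 100, and 6 were below 10.

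**Figure D1:**
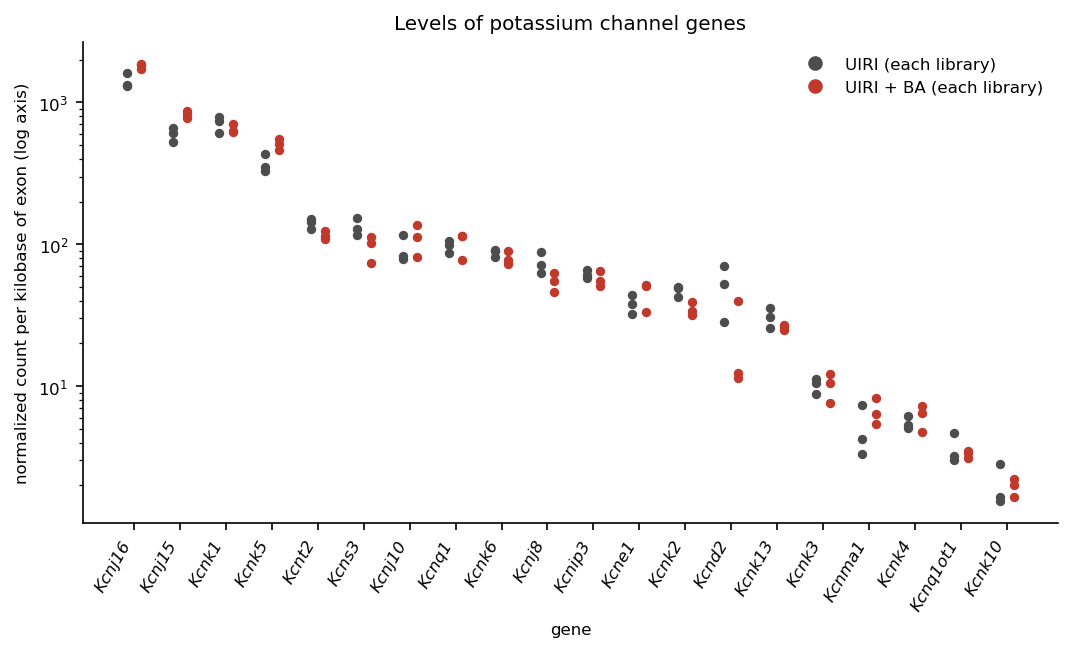
Normalized count per kilobase of exon (log axis) of potassium channel genes described in the text, each point 1 library, UIRI in grey and UIRI + BA in red. Kcnj16, Kcnj15, Kcnk1 and Kcnk5 lie above all other genes shown in every library.

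With BA, the tubular channel genes Kcnj15, Kcnk5 and Kcnj16 were higher, at 1.28 to 1.37 times the UIRI mean, and Kcnk2, Kcnt2, Kcns3 and Kcnj8 were lower. After Benjamini-Hochberg adjustment over all 19176 rows, limma left 0 potassium channel genes below an adjusted p of 0.05, as it did 0% of all genes. At an unadjusted p below 0.05, limma gave 9 of the 65 genes, against 10.3% of all genes. Of these, 4 were higher with BA, where 5.67% of all genes were higher, and 5 were lower, where 4.61% of all genes were lower. With 1 library left out, the number higher ran from 3 to 7 and the number lower from 1 to 8. Over all 19176 rows the same fits gave 500 to 2629 higher and 308 to 2209 lower. DESeq2 on the recovered reads gave an adjusted p below 0.05 to 2 of the 41 potassium channel genes it adjusted (1.49% of all genes), and edgeR's quasi-likelihood test gave it to 0, as to 0 of all 17155 genes it tested. In 12 of the 65 genes no library of either group reached into the other, 5 of them higher and 7 lower with BA, and the same held for 14.4% of all genes.

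Over the 65 genes, log2 fold changes had a median of -0.09, against -0.01 over all rows. For the 11 tubular inward rectifiers and two-pore channels it was 0.00, and ran from -0.0828 to 0.223 with 1 library left out, the latter without UIRI replicate 3. Of these 11 genes, 3 were higher and 1 lower at an unadjusted p below 0.05 by limma. Among the 54 others, 1 was higher and 4 were lower. Of all genes, 5.67% were higher and 4.61% lower. The difference between the 11 and the 54 genes was not tested. Fold changes are on the log2(value + 1) scale, which understates changes of low genes.

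**Figure D2:**
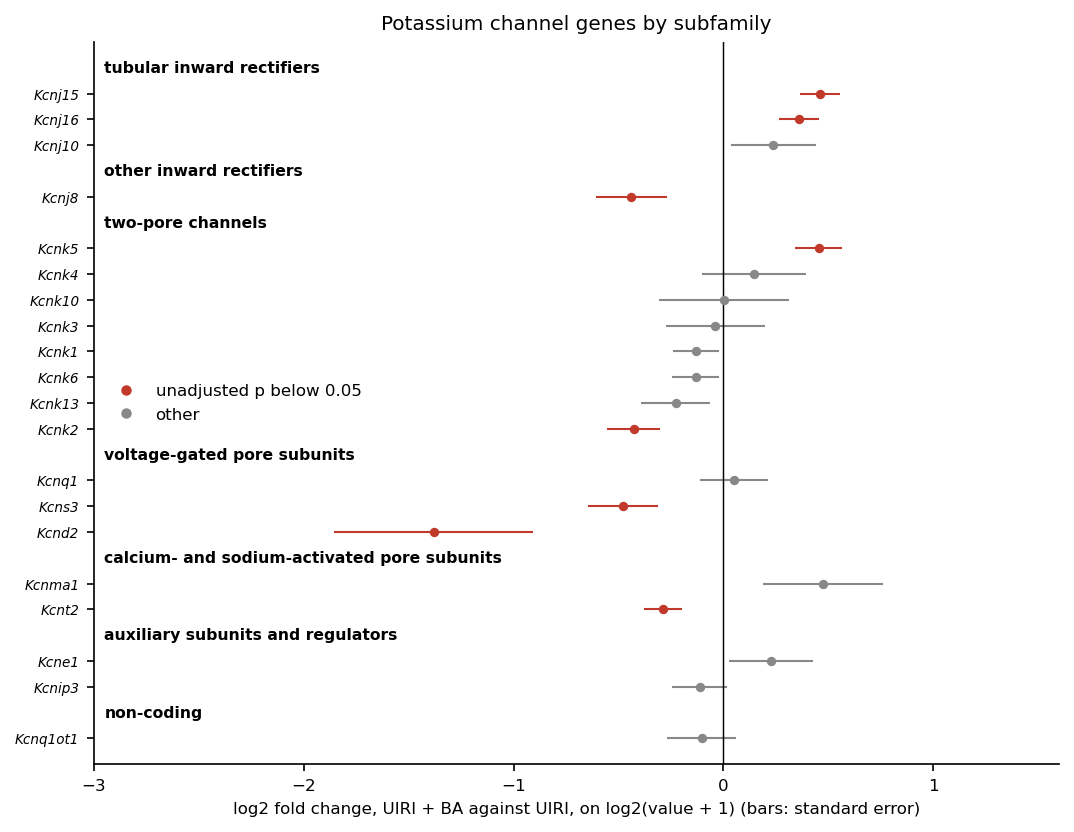
Log2 fold change (UIRI + BA against UIRI) of potassium channel genes described in the text, grouped by subfamily, with bars of 1 standard error and red points for an unadjusted p below 0.05. Red points lie on both sides of 0, with Kcnj15, Kcnj16 and Kcnk5 to the right and Kcnk2, Kcnt2, Kcns3, Kcnj8 and Kcnd2 to the left.

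Kcnj15 encodes the inward rectifier Kir4.2. In GENCODE release M21 (build GRCm38; the build used by the authors is not given in the sources used here, and genes were matched by symbol) it lies on chromosome 16 from 95257558 to 95300260 on the plus strand. Its normalized counts were 3336, 4193 and 3853 with vehicle and 5193, 4897 and 5524 with BA. Every library with BA was above every UIRI library. The group means were 3794 ± 431 (SD, n = 3) and 5205 ± 314 (SD, n = 3). The log2 fold change was 0.46 (standard error 0.10) and the adjusted p 0.225 by limma and 0.00826 by DESeq2. Over limma, DESeq2, edgeR and the other alternatives the adjusted p ran from 0.00826 to 1.00. In bulk cortex, a change in the share of a cell type and a change in RNA per cell cannot be told apart.

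Kcnk5 encodes TASK-2, a two-pore channel opened by alkaline pH, and lies on chromosome 14 from 20140057 to 20181809 on the minus strand. Its normalized counts were 1126, 1194 and 1464 with vehicle and 1565, 1727 and 1876 with BA. The groups again did not overlap. The means were 1262 ± 179 (SD, n = 3) and 1723 ± 156 (SD, n = 3). The log2 fold change was 0.45 (standard error 0.11) and the adjusted p 0.279 by limma and 0.0439 by DESeq2, in a range of 0.0147 to 1.00 over the alternatives.

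Kcnj16 encodes Kir5.1, which forms no working channel alone in most cells and modifies its Kcnj10 or Kcnj15 partner. It lies on chromosome 11 from 110968033 to 111027968 on the plus strand. Its normalized counts were 5209, 5099 and 6315 with vehicle and 7366, 6716 and 7189 with BA, with no overlap. The log2 fold change was 0.36 (standard error 0.10) and the adjusted p 0.301 by limma and 0.0742 by DESeq2, in a range of 0.0143 to 1.00 over the alternatives. For each of Kcnj15, Kcnk5 and Kcnj16, the exact two-sided permutation test over the 6 libraries gave p = 0.1, the smallest value that 3 against 3 allow. The deepest library, UIRI replicate 3, held 2.04 times the median reads of the remaining 5. Without it, limma gave an adjusted p below 0.05 to 4 potassium channel genes (5.02% of all genes), namely Kcnj15 (0.0357), Kcnk5 (0.0147), Kcnj16 (0.0143) and Kcnt2 (0.0454).

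**Figure D3:**
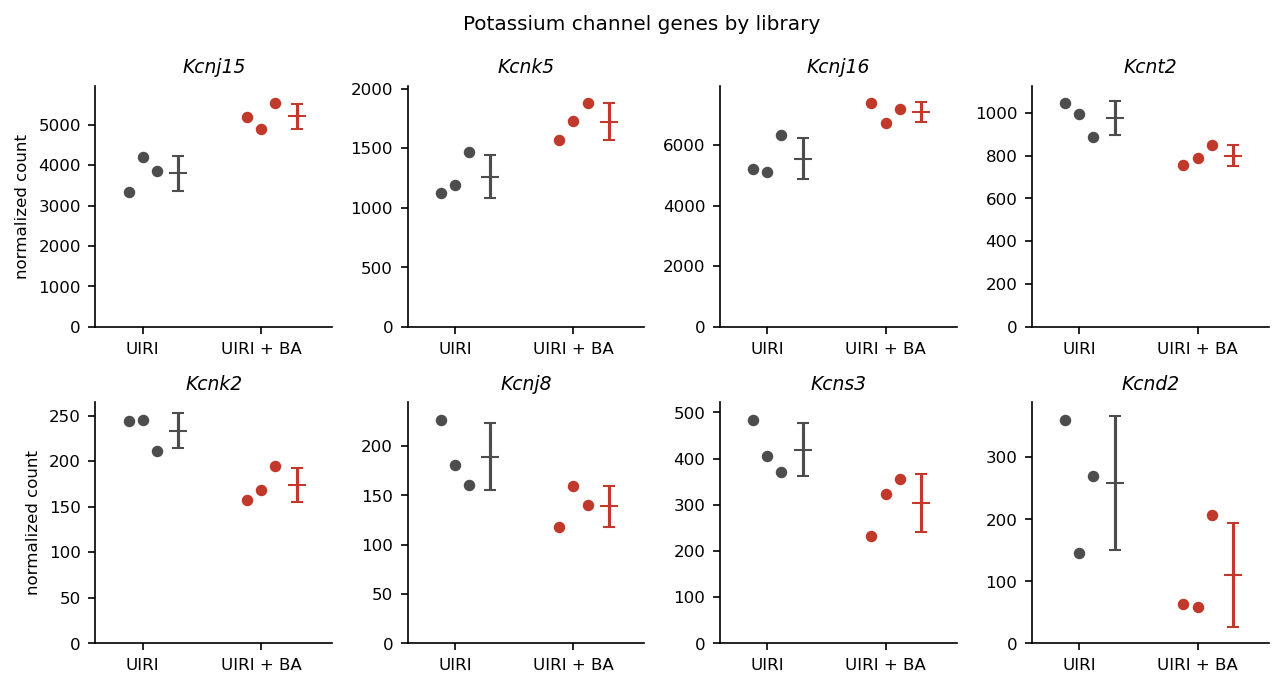
Normalized counts of 8 potassium channel genes with an unadjusted p below 0.05 by limma, each point 1 library, with the mean and SD of each group beside the points. In Kcnd2 the groups overlap, and in the other genes shown they do not.

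Since Kcnj15, Kcnj16 and Kcnk5 were higher with BA in every fit, the 250 bases before their starts are shown. They come from RefSeq (build GRCm38.p6), whose promoter table held 46 of the 65 genes. Each is written 5′ to 3′ on the strand of the gene, and for Kcnj16 the most upstream of 4 starts was taken. The windows are chr16:95257308-95257557 (plus strand), chr11:110967783-110968032 (plus strand) and chr14:20181783-20182032 (minus strand). The RefSeq start of Kcnk5 lies within the GENCODE span given above, so part of its window falls inside that span. Capitals mark matches to 6 short motifs searched on both strands.
Kcnj15: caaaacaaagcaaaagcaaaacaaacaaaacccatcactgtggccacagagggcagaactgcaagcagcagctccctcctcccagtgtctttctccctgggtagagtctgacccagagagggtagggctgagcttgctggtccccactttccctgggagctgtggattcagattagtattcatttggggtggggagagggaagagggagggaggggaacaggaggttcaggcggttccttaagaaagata
Kcnj16: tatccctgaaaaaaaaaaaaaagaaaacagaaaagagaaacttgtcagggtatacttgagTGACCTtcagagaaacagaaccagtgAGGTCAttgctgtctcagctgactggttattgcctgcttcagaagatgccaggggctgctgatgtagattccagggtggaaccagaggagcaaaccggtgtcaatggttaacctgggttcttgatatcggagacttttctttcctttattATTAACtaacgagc
Kcnk5: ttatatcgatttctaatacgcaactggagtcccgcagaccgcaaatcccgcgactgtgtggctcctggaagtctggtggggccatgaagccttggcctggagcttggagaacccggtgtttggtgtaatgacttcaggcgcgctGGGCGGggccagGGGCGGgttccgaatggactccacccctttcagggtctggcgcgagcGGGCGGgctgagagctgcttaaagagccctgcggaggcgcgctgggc
Kcnj16 held 1 match to the HNF1 half-site GTTAAT, 14 bases before the start on the opposite strand, and 2 matches to the nuclear receptor half-site AGGTCA. Kcnk5 held 3 matches to the GC box GGGCGG, and Kcnj15 held none of the 6. The other motifs searched were CAAAGTCC (an HNF4-type stretch), TGTTTGC (a forkhead-type stretch) and the E-box CACGTG, which were in none of the 3 windows. Among 32851 promoter windows of the same length, 6.43% held GTTAAT, 14.0% AGGTCA, 4.30% TGTTTGC, 32.7% GGGCGG and 6.02% CACGTG, and 393 windows held CAAAGTCC. No motif was shared by the 3 windows, whose GC content was 53.2% for Kcnj15, 42.8% for Kcnj16 and 62.8% for Kcnk5. The motifs were chosen after the values were seen, and a match is a description of the sequence.

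Apart from Kcnk2, the other tubular members overlapped between the groups. Kcnj10 (Kir4.1), the partner of Kcnj16 in the distal convoluted tubule, read 424, 449.9 and 627 with vehicle and 739, 606 and 438 with BA. UIRI + BA replicates 2 and 3 lay among the UIRI libraries. Its log2 fold change was 0.24 (standard error 0.20) and the adjusted p 0.683 by limma. Kcnk1 (TWIK-1) read 1663, 1353 and 1762 with vehicle and 1394, 1386 and 1567 with BA, with a log2 fold change of -0.13 (standard error 0.11). Kcnk6 (TWIK-2) also gave -0.13 (standard error 0.11), with means of 363 and 332. Kcnk13 gave -0.23, Kcnk3 -0.04, Kcnk4 0.15 and Kcnk10 0.00, and Kcnk10 had means of 17.6 and 17.2. None of these genes had an unadjusted p below 0.05 by limma with all libraries. With 1 library left out, Kcnj10 ran from 0.07 to 0.44, with an unadjusted p of 0.0491 when UIRI replicate 3 was dropped and of 0.0392 when UIRI + BA replicate 3 was. Kcnk1 ran from -0.24 (unadjusted p 0.0362, without UIRI replicate 2) to -0.05. In the same fits Kcnk6 ran from -0.22 to -0.07, Kcnk13 from -0.35 to -0.11 and Kcnk4 from 0.02 to 0.31.

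Kcnk2 encodes TREK-1, a channel opened by stretch and lipids. Its normalized counts were 244, 245 and 211 with vehicle and 158, 168 and 194 with BA, and the groups did not overlap. It was the only two-pore gene that was lower at an unadjusted p below 0.05, at -0.43 in log2 (standard error 0.13) with an adjusted p of 0.354 by limma, in a range of 0.0639 to 1.00 over the alternatives. Kcnj15, Kcnk5, Kcnj16 and Kcnk2 were the 4 potassium channel genes with an unadjusted p below 0.05 in all 14 alternative settings. The share of all genes that met this in every setting was not counted, so the 4 have no background to be set against.

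Of the 8 other inward rectifiers, Kcnj8 was the only one past an unadjusted p of 0.05. It encodes Kir6.1, the pore of the ATP-sensitive channel of vascular smooth muscle and pericytes. Its normalized counts were 227, 181 and 160.5 with vehicle and 118, 159 and 140 with BA. The lowest UIRI library stood just above the highest BA library. The log2 fold change was -0.44 (standard error 0.17) and the adjusted p 0.448 by limma, and in 4 of the 6 fits with 1 library left out its unadjusted p was above 0.05, at 0.124 without UIRI replicate 1, 0.0502 without UIRI replicate 2, 0.104 without UIRI + BA replicate 1 and 0.0551 without UIRI + BA replicate 3.

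Among 24 voltage-gated subunits, Kcns3 and Kcnd2 were lower at an unadjusted p below 0.05. Kcns3 read 484, 405 and 370.2 with vehicle and 233, 323 and 355 with BA. Its log2 fold change was -0.48 (standard error 0.17) and the adjusted p 0.418 by limma. Kcnd2 (Kv4.2), a transient outward channel, read 360.3, 145 and 270.0 with vehicle and 63.9, 59.2 and 207 with BA. UIRI + BA replicate 3 stood above UIRI replicate 2, so the groups overlapped. Its log2 fold change was -1.38 (standard error 0.47) and the adjusted p 0.408 by limma. In DESeq2 the unadjusted p of Kcnd2 was 0.0713. With UIRI replicate 1 left out, the unadjusted p was 0.0748 for Kcns3, 0.0625 for Kcnd2 and 0.0547 for Kcnt2. It was also above 0.05 without UIRI + BA replicate 1 for Kcns3 (0.0637) and Kcnd2 (0.0735), and without UIRI + BA replicate 2 for Kcnd2 (0.0601).

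Kcnq1 and its subunit Kcne1, an apical channel of the proximal tubule, overlapped between groups. Kcnq1 had means of 397 ± 40.2 (SD, n = 3) and 417 ± 87.0 (SD, n = 3), and Kcne1 of 123 ± 18.3 (SD, n = 3) and 145 ± 33.8 (SD, n = 3). Their log2 fold changes were 0.05 (standard error 0.16) and 0.23 (standard error 0.20). Kcne1 ran from 0.12 without UIRI replicate 1 to 0.44 (unadjusted p 0.0337) without UIRI + BA replicate 3. Kcnq1ot1, the antisense RNA inside the Kcnq1 gene, stood at -0.10 in log2 (standard error 0.16). The 2 genes share 121 exon bases on opposite strands, and the sources used here do not say whether counting used strand, so their reads may not be fully separated. Kcnj15 likewise shares 333 exon bases with the antisense gene Gm49643, whose means were 54.1 and 78.1. Kcnk2 shares 604 with the antisense gene A430027H14Rik, which is not among the rows measured. On the same strand, Kcnk4 shares 587 exon bases with Catsperz. The means of Catsperz were 24.0 and 11.5, against 24.6 and 27.6 for Kcnk4.

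Of 8 calcium- and sodium-activated pore subunits, Kcnt2 was lower with BA. It read 1043, 994 and 889 with vehicle and 755, 790.5 and 850.4 with BA, without overlap. Its log2 fold change was -0.29 (standard error 0.09) and the adjusted p 0.374 by limma. Kcnma1, the large-conductance channel of the distal nephron, read 56.6, 72.0 and 126 with vehicle and 140, 92.6 and 107 with BA. UIRI replicate 3 lay among the BA libraries, and the log2 fold change was 0.48 (standard error 0.29) and the adjusted p 0.575 by limma. With 1 library left out it ran from 0.23 to 0.80, the latter without UIRI replicate 3 (unadjusted p 0.00500). None of the 13 auxiliary subunits and regulators had an unadjusted p below 0.05, and their log2 fold changes ran from -0.48 to 0.42. Kcnip3, the most abundant of them, gave -0.11 (standard error 0.13). The 56 genes not past an unadjusted p of 0.05 ran from -1.34 (Kcnv2) to 0.64. Kcnv2 held 3 reads or fewer in every UIRI + BA library, so the size of its change is not determined.

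Sums of some cell type markers differed between the groups, in the direction of some of these genes. The 12 proximal tubule markers, all measured, summed to 26905, 31587 and 39044 with vehicle and 47675, 44610 and 57765 with BA. Of these, 11 were higher at an unadjusted p below 0.05 and Aqp1 was not. Slc27a2 was the most abundant per kilobase, and none was at 0. The median log2 fold change of the list was 0.74, larger than that of Kcnj15, Kcnk5 or Kcnj16. Within UIRI, the sum, Kcnk5 and Kcnj16 were highest in replicate 3 and Kcnj15 in replicate 2. Within UIRI + BA, the sum, Kcnj15 and Kcnk5 were highest in replicate 3 and Kcnj16 in replicate 1. The part of proximal tubule content in the higher values of these channels was not tested.

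Kcnj10 departed from the proximal tubule sum in UIRI + BA replicate 3, where it was below the UIRI mean and the sum was highest, and had the same order as the sum within UIRI. Of 5 distal convoluted tubule markers, 4 were measured (Pvalb was not analysed here), led by Slc12a3 per kilobase. They summed to 5124, 6119 and 7927 with vehicle and 10178.5, 8107 and 5847 with BA. The 3 libraries with the highest sums, UIRI + BA replicates 1 and 2 and UIRI replicate 3, were also the 3 with the highest Kcnj10, and UIRI replicate 1 was lowest for both. The sums of principal and intercalated cell markers were highest in the same 3 libraries, so this pattern is not particular to 1 segment. The part of these cells in the values of Kcnj10 was not tested.

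The 6 fibroblast markers summed to 103769, 85556 and 92337 with vehicle and 63095, 66214 and 83114 with BA, with Col3a1 the most abundant per kilobase and none at 0. Col1a1, Col1a2, Col3a1 and Pdgfra were lower at an unadjusted p below 0.05. Within the UIRI + BA group, the fibroblast sum, Kcnk2, Kcnt2 and Kcns3 were all lowest in replicate 1 and highest in replicate 3. Within UIRI the order differed, with the fibroblast sum lowest in replicate 2 and these 3 genes lowest in replicate 3. The 8 smooth muscle and pericyte markers, led by Acta2 per kilobase, summed to 12701, 13306 and 12761 with vehicle and 10841, 12746 and 12371 with BA, with Des and Pdgfrb lower. These sums overlapped between the groups. UIRI + BA replicate 1 was lowest for this sum and for Kcnj8, but within UIRI replicate 1 had the lowest sum and the highest Kcnj8. The part of these cells in the lower channel genes was not tested.

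**Figure D4:**
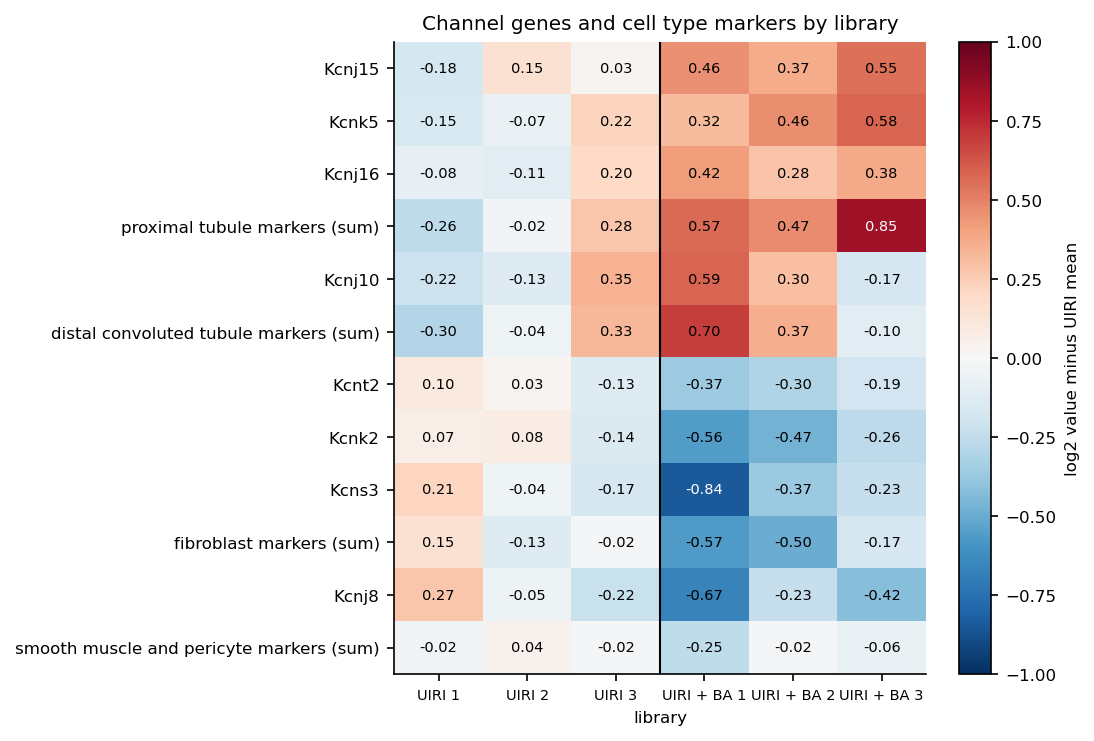
Log2 value of 8 channel genes and of the summed markers of 4 cell types in each library, minus the mean log2 value of the UIRI libraries (red higher, blue lower). The proximal tubule sum and Kcnj15, Kcnk5 and Kcnj16 are higher in every BA library, whereas Kcnj10 and the distal convoluted tubule sum are below the UIRI mean in UIRI + BA replicate 3.

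Sums of the other marker lists given here overlapped between the groups. Thick limb markers, led by Umod, summed to 35841, 25628 and 41430.3 with vehicle and 34991, 31227 and 44839 with BA. Macrophage markers, led by C1qa, summed to 38015, 35080 and 28228 with vehicle and 27593, 29575 and 26423 with BA. Principal, intercalated, podocyte, endothelial, T cell, urothelium, skeletal muscle, adrenal and injured tubule markers also overlapped in their sums, at 0.891 to 1.18 times the UIRI mean. The injured tubule sum is mostly Spp1, and of its 6 genes 3 were higher and 1 lower at an unadjusted p below 0.05. Of the adrenal list, only Star and Mc2r were in the table.

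Potassium channels work with transporters that load the cell, and 35 of 38 listed partners were measured. At an unadjusted p below 0.05, 4 of the 35 were higher and 0 lower with BA, against 5.67% and 4.61% of all genes. These were Atp1b1 and Fxyd2, subunits of Na,K-ATPase, the H,K-ATPase subunit Atp4a and the potassium-chloride cotransporter Slc12a7. Slc12a7 read 1702, 1768 and 1892 with vehicle and 2177, 2084 and 2109.9 with BA, which is a log2 change of 0.25 (standard error 0.07) with an adjusted p of 0.340 by limma. Fxyd2 gave 0.26 (standard error 0.09), Atp1b1 0.36 (standard error 0.15) and Atp4a 0.46 (standard error 0.18). The groups did not overlap in Slc12a7 and Fxyd2, but they overlapped in Atp1b1 and Atp4a. Of the 14 alternatives, 7 took the unadjusted p of Atp1b1 above 0.05 (up to 0.170), 4 that of Atp4a (up to 0.117) and 1 that of Fxyd2 (0.0641). Kcnj1, the apical secretory channel ROMK, read 2065, 1772 and 2755 with vehicle and 2835, 2230.3 and 2217 with BA, with a log2 fold change of 0.16 (standard error 0.16), or 0.33 (unadjusted p 0.0182) without UIRI replicate 3.

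In 5 places, potassium channel genes lie close together on a chromosome, and whether neighbours share a direction was not tested. Kcnj16 and Kcnj2 lie 38195 bases apart on chromosome 11 on the same strand, and their log2 fold changes were 0.36 and -0.05. Kcnj9 and Kcnj10 lie 11891 bases apart on chromosome 1 and gave 0.34 and 0.24, neither past an unadjusted p of 0.05. Kcnj5 and Kcnj1 lie 28142 bases apart on chromosome 9 and gave -0.26 and 0.16, and Kcna3 and Kcna2 on chromosome 3 gave -0.09 and -0.37. Apart from Kcnq1 with Kcnq1ot1, no other pair lay within 100000 bases.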

How the data were processed

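The authors aligned reads with HISAT2, counted them with FeatureCounts and deposited, for each gene in each library, a signal equal to its reads over a size factor. All values (100%) were whole reads within 0.01 of a read. The authors' own fold changes, p-values and enrichment tables were not used. Symbols on more than 1 row (9) were kept apart. Values were tested as log2(value + 1) with limma 3.58.1 (R 4.3.3), with an intensity trend, no covariate and Benjamini-Hochberg adjustment over all rows. Exact permutation tests used Python 3.11.15, and the recovered reads also went through DESeq2 1.42.0 and edgeR 4.0.16. The limma, DESeq2 and edgeR fits were checked on simulated data. Exon lengths came from GENCODE M21. The members and lists were chosen with earlier results of these data known. Genes named are the tubular channels, Kcnq1, Kcne1, Kcnma1, Kcnj1, members and partners with an unadjusted p below 0.05, and the most abundant member of each subfamily; some that meet this rule are not reported here. Gm49643, A430027H14Rik, Catsperz, Kcnj2, Kcnj5, Kcnj9, Kcna2, Kcna3, Kcnv2 and marker genes were added once values had been seen. Alternatives were other scalings, a filter on low values, another pseudocount, other tests, a replicate block and each library left out. With 3 animals per group precision is limited, and genes with few reads also carry counting error.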

Additional observations from a re-analysis of the deposited data

How the results depend on the processing

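Kcnj15, Kcnk5 and Kcnj16 were higher and Kcnk2 lower with BA at an unadjusted p below 0.05 in all 14 alternative settings. How many of all rows met this in every setting was not counted. The number of potassium channel genes at an unadjusted p below 0.05 was 9. With each library left out it was lowest at 4, when UIRI replicate 1 was dropped (808 of all 19176 rows), and highest at 15, when UIRI replicate 3 was dropped (4838 of all rows). The number at an adjusted p below 0.05 was 0, 2 with DESeq2, and 0 to 4 with each library left out, the 4 again without UIRI replicate 3. Median log2 fold changes ran from -0.139 to -0.0585 over the 65 genes and from -0.0828 to 0.223 over the 11 tubular channels with each library left out. Fits with a library left out hold fewer animals; other causes were not tested.

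Genes near 0 changed sign. Kcnk10 gave -0.0146 with upper quartile scaling, -0.00055 with TMM scaling, -0.0770 with DESeq2, -0.11 with edgeR, and -0.15 to 0.26 with each library left out. Kcnk3 gave 0.0032 with edgeR and -0.19 to 0.15 with each library left out, Kcnq1 -0.0456 to 0.237, and Kcnq1ot1 -0.23 to 0.10. The cause was not tested.

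Whether replicate numbers pair the animals was not settled. Deviations of same-numbered libraries from their group means correlated at -0.240, 0.304 and 0.155 over 17249 genes. Not every library correlated best with its own number. Deviations within a group are tied to each other, so these correlations cannot exclude pairing. With the replicate block, 11 potassium channel genes (2106 of all rows) had an unadjusted p below 0.05, and by limma 0 (6 of all rows) had an adjusted p below 0.05. Upper quartile, quantile and TMM scaling, a value of at least 1 in every library and a pseudocount of 0.1 each left the same 9 genes at an unadjusted p below 0.05. Counting error limits the 6 genes with a mean below 10.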
